A study of Mus musculus with 14 samples.

Results

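The genes described here are the 9 mouse Wnt ligand genes Wnt4, Wnt5a, Wnt5b, Wnt7a, Wnt7b, Wnt9a, Wnt9b, Wnt11 and Wnt16, followed through RNA sequencing of differentiating embryoid bodies. They were chosen by name, and all 9 were found among the 36047 genes listed in each of the count tables, which also hold 10 other Wnt ligand genes. Embryoid bodies are aggregates that embryonic stem cells form in suspension, here in medium that favours mesoderm. There were 7 groups of 2 libraries each: Foxk1 KO and iHA-Foxk1 control embryoid bodies at day 3, the same pair at day 5, and Foxk1 KO with IWR1, Foxk1 KO and control at day 10. Foxk1 encodes a forkhead transcription factor. Labels spell the control as iHAFoxk1 on the earlier days, with ND in the titles, and as Control on day 10. Per the protocols iHA-Foxk1 was the control on all days. IWR1 is a compound that protects Axin from breakdown, which dampens canonical Wnt signalling. Neither its dose nor its timing is stated in the labels. Each genotype is a single stem cell line, so effects of losing Foxk1 and any other difference of the lines cannot be told apart. Both lines were kept on irradiated fibroblasts, which a plating step was meant to remove before differentiation. Nothing in the labels says that replicate libraries came from separate cultures. All p-values reflect only the spread between these libraries, and that spread may be technical.

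Wnt proteins are secreted, lipid-bearing signals that bind Frizzled receptors. In the canonical branch they stabilise beta-catenin, which acts with TCF and LEF factors on target genes. In the noncanonical branches they act through receptors such as Ror and Ryk on cell polarity and movement, through JNK, or on calcium release. Wnt5a, Wnt5b and Wnt11 are best known for the noncanonical branches, which drive cell movements of gastrulation and shape the outflow region of the heart. Wnt4, Wnt7a, Wnt7b, Wnt9a, Wnt9b and Wnt16 act through either kind of branch depending on the tissue.

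The ligand genes are spread over the mm10 build. Wnt4 (ENSMUSG00000036856.4) spans 137277489 to 137299726 on chromosome 4, Wnt5a (ENSMUSG00000021994.15) spans 28504750 to 28527448 on chromosome 14, and Wnt7b (ENSMUSG00000022382.15) spans 85535437 to 85582473 on chromosome 15. Wnt5b (ENSMUSG00000030170.14, 119432531 to 119544347), Wnt7a (ENSMUSG00000030093.7, 91363981 to 91411363) and Wnt16 (ENSMUSG00000029671.15, 22288227 to 22298522) are on chromosome 6. Wnt9a (ENSMUSG00000000126.11, 59306928 to 59333552) and Wnt9b (ENSMUSG00000018486.2, 103727364 to 103749821) are on chromosome 11, and Wnt11 (ENSMUSG00000015957.12, 98835112 to 98855195) is on chromosome 7. Wnt5b overlaps the coding gene Fbxl14 and Wnt11 overlaps the processed pseudogene Gm8398, each on the opposite strand. Wnt5a and Wnt7b overlap the antisense genes Gm2670 and AU022754. These overlaps are of whole gene spans and were not checked for shared exons. Whether counting used strand is unstated, and whether reads of the overlapping partners were mixed was not tested.

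Promoter entries of 300 bases, from 250 before to 50 after the start site, were matched for 7 of the 9 genes in RefSeq (GRCm38.p6), with 10 entries in all. They were searched on both strands for the TCF and LEF core CTTTGA or CTTTGT and for the forkhead core TGTTTAC or TATTTAC. The last letters of a TCF and LEF core can also begin a forkhead core, but no such overlap arose in these entries. TCF and LEF cores were found in 2 of the 10 entries, an entry of Wnt5b and an entry of Wnt11, and in 31.2% of all 32851 promoters in the table. No entry of these genes held a forkhead core, which 6.54% of all promoters held. The 2 entries with a match are shown. Wnt5a and Wnt7b had no entry and could not be searched, and a link between matches and expression was not tested. The capitals mark the match, which reads CTTTGA on the strand of transcription in Wnt5b at position -71 from the start site, and as its reverse complement in Wnt11 at position -50.
Wnt5b, chr6:119449337-119449636, minus strand: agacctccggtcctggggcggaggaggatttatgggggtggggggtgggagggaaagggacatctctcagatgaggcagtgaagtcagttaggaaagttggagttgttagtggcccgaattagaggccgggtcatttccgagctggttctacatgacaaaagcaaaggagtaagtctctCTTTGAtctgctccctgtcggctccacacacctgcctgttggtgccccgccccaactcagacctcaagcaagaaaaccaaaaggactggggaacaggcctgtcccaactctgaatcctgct
Wnt11, chr7:98834862-98835161, plus strand: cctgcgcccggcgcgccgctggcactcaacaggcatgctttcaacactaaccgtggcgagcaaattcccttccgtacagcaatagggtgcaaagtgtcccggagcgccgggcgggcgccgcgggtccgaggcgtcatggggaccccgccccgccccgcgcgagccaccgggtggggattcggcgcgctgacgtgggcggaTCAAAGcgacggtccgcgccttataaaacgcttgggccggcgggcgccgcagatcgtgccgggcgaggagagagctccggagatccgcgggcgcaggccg
Wnt5b has 2 further entries without a match, and Wnt11 has 1. The counts are per gene, so they do not show which start site was used, and a match is only a run of letters. The Wnt5b stretch shown holds 7 CpG pairs at 55% G and C, and the Wnt11 stretch holds 45 at 71.3%.

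The libraries of days 3 and 5 held 10574194 to 11621032 estimated counts and those of day 10 held 34466708 to 52747273. Levels are given as CPM, the gene's count scaled for library depth by TMM. In the shallower libraries of days 3 and 5 a gene with 3 counts had 0.254 to 0.298 CPM, and in those of day 10 it had 0.0621 to 0.0827 CPM. Fold changes are log2 values ± SE, and adjusted p values come from quasi-likelihood tests in edgeR, adjusted by Benjamini-Hochberg over every gene tested. The tables of days 3 and 5 and of day 10 were scaled separately, so levels set side by side across them carry no test. Foxk1 itself checks the labels. It measured 16.2 and 16.5 CPM in KO and 86.3 and 76.4 CPM in control at day 3, for a log2 fold change of -2.32 ± 0.09 (adjusted p = 2.22e-07). It measured 38.2 and 33.6 CPM in KO and 134 and 133 CPM in control at day 5 (-1.90 ± 0.09, adjusted p = 4.91e-07). At day 10 it measured 26.4 and 52.9 CPM with IWR1, 71.3 and 41.8 CPM in libraries labelled KO and 65 and 80.1 CPM in control, with no call between KO and control (-0.36 ± 0.39, adjusted p = 0.722). Directions given for day 10 therefore rest on the labels.

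The 9 genes covered a wide range of levels. Wnt5a reached the highest single value, 138 CPM in a day 5 KO library. Wnt7a and Wnt16 stayed at or below 0.96 CPM in all 14 libraries and passed the filter on low counts only in the day 10 table, so 7 of the 9 genes were tested at days 3 and 5 and 9 at day 10. Wnt16 passed at day 10 through the IWR1 libraries and 1 control library. Wnt7b passed at days 3 and 5 in 5 libraries, 1 of them a control. The plot of CPM by library shows all 14 values of each gene.

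**Figure D1:**
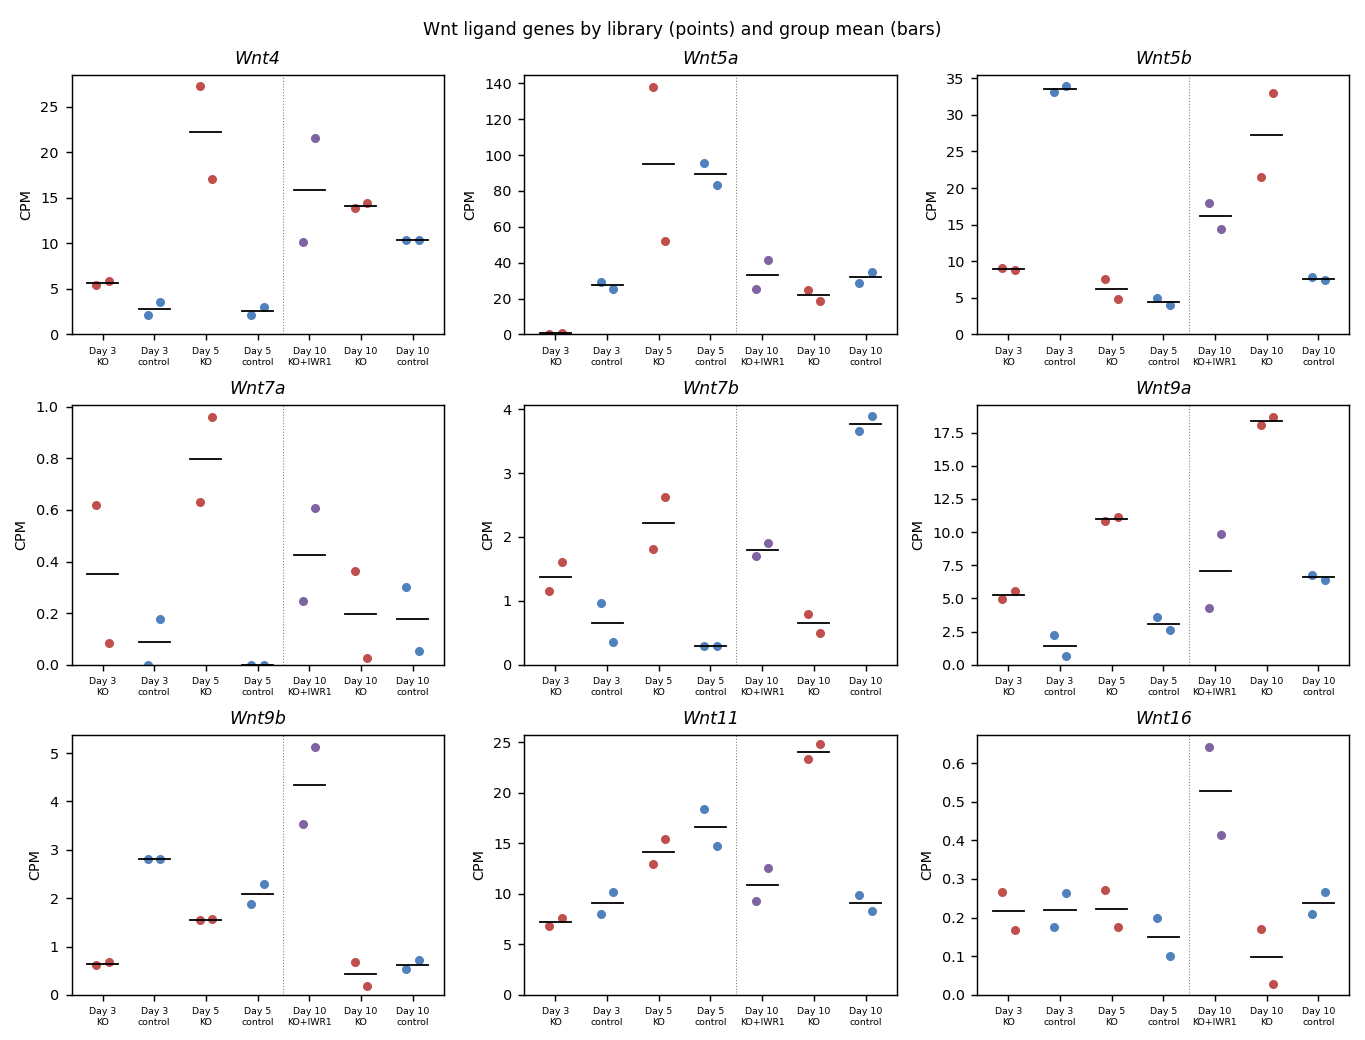
CPM of each of the 9 Wnt ligand genes (vertical axis, own scale per panel) in every library, with KO in red, control in blue and KO with IWR1 in purple; points are libraries, bars are group means, and the dotted line parts the separately scaled tables. Wnt5b is highest at day 3 in control (33.1 and 34 CPM), Wnt5a is highest at day 5, and Wnt9a and Wnt11 are highest in day 10 libraries labelled KO.

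At day 3, control embryoid bodies expressed mainly Wnt5b and Wnt5a, and both were lower in KO embryoid bodies, as was Wnt9b. Wnt9a and Wnt4 were higher in KO. Of the 7 genes tested, 2 rose and 3 fell, beside 16% and 16.9% of the 14430 genes tested. The median log2 fold change of the 7 was -0.34, beside -0.01 for all genes.

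Wnt5a, the ligand that directs elongation of the body axis in mouse embryos, measured 0.354 and 0.93 CPM in day 3 KO libraries and 29.1 and 25.5 CPM in control libraries. Both KO values lay far below both control values (log2 fold change -5.37 ± 0.99, adjusted p = 0.0159). The KO values stood for 4 and 11 counts. Leaving out any 1 of the 4 day 3 libraries took the adjusted p above 0.05 (0.0516 to 0.0767) with log2 fold changes of -4.86 to -6.23. Its paralog Wnt5b, which acts in cartilage and in movements of gastrulation, measured 9.02 and 8.87 CPM in KO and 33.1 and 34 CPM in control. The libraries within each group lay close together (log2 fold change -1.91 ± 0.19, adjusted p = 7.81e-05). That call held in all 9 alternative fits. Wnt9b, which signals from the ureteric bud to kidney mesenchyme in mice, measured 0.619 and 0.676 CPM in KO and 2.82 in each control library (log2 fold change -2.10 ± 0.38, adjusted p = 0.00263). It was a low gene, and its call also held in all 9 alternative fits.

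Wnt9a, known for its part in joint formation, measured 4.95 and 5.58 CPM in day 3 KO and 2.2 and 0.616 CPM in control libraries. The control libraries differed from each other but both lay below KO (log2 fold change 1.89 ± 0.43, adjusted p = 0.00861). Without KO replicate 2 the adjusted p was 0.0654, with a log2 fold change of 1.80. Wnt4, needed for kidney tubule and female gonad development in mice, measured 5.39 and 5.83 CPM in KO and 2.11 and 3.52 CPM in control (log2 fold change 0.99 ± 0.33, adjusted p = 0.0448). This was the least secure of the day 3 calls: no fit with a day 3 library left out called it (4 fits, adjusted p 0.0542 to 0.265, log2 fold change 0.67 to 1.40), and it was lost with DESeq2 (adjusted p = 0.0635). Wnt7b, which acts in lung growth and in brain vessel formation, measured 1.15 and 1.61 CPM in KO and 0.968 and 0.352 CPM in control, with no call (log2 fold change 1.05 ± 0.55, adjusted p = 0.173). Wnt11, which guides convergent movements and heart development, measured 6.81 and 7.61 CPM in KO and 8.01 and 10.2 CPM in control, also with no call (-0.34 ± 0.20, adjusted p = 0.228). Neither of these differences passed the test. Wnt7a, a dorsal limb and female tract signal, had 8 counts in KO and 2 in control over both libraries, and Wnt16, a bone ligand, had 5 in each.

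Markers of other cell types moved at day 3 as well. The summed level of 10 primitive streak and pluripotency markers was 1790 to 1900 CPM in KO and 3440 to 3530 CPM in control, with 5 of the 10 lower and 1 higher. For 12 fibroblast and mesenchyme markers the summed level was 47 to 54.3 CPM in KO and 124 to 127 CPM in control. Of these, 2 were lower and 1 higher, and Lum was at 0 in both groups. Pdgfra, a mesoderm receptor gene, averaged 1.41 CPM in KO and 73.3 CPM in control (-5.67 ± 0.36, adjusted p = 1.77e-04), Thy1 averaged 17.3 CPM in KO and 7.62 CPM in control (1.19 ± 0.20, adjusted p = 0.00213), and the list's median log2 fold change was 0.15. For 10 endothelial markers the summed level was 57.5 to 59.3 CPM in KO and 158 to 165 CPM in control. Of 9 tested, 3 were lower and 1 higher, and Emcn was at 0 in both groups. Kdr, an early mesoderm and endothelial receptor gene, averaged 5.07 CPM in KO and 105 CPM in control (-4.38 ± 0.46, adjusted p = 0.00255), Npr3 averaged 4.94 CPM in KO and 0.66 CPM in control (2.88 ± 0.50, adjusted p = 0.00229), and the list's median log2 fold change was 0.92. In bulk libraries fewer cells of a type and less RNA per cell cannot be told apart, and the part of these marker changes in the Wnt values was not tested.

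At day 5 the calls pointed one way. Wnt4, Wnt9a and Wnt7b were higher in KO embryoid bodies, and none of the 7 genes tested was called lower. These 3 rises stand beside 21.9% of all genes called higher and 21.7% called lower. The median of the 7 genes was 0.48 on the log2 scale, beside 0.01 for all genes.

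Wnt4 showed the largest of these differences, at 27.3 and 17.1 CPM in day 5 KO libraries and 2.18 and 2.98 CPM in control (log2 fold change 3.10 ± 0.31, adjusted p = 7.20e-05). Wnt9a measured 10.8 and 11.1 CPM in KO and 3.57 and 2.58 CPM in control (1.83 ± 0.38, adjusted p = 0.00388). Wnt7b measured 1.81 and 2.62 CPM in KO and 0.297 and 0.298 CPM in control, where each value stands for 3 counts (2.85 ± 0.61, adjusted p = 0.0048). The 3 calls held in all 9 alternative fits. Wnt7a had 18 counts in KO libraries, at 0.632 and 0.96 CPM, and 0 counts in control libraries. Against a floor of 3 counts over the control group (0.149 CPM) it was at least 5.35-fold higher in KO. It was too low for the main test, with 1 library of days 3 and 5, a day 5 KO library, over the cutoff of the filter. With no filter on low counts its adjusted p was 0.012, which is not counted as a call.

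The 2 KO libraries of day 5 disagreed on Wnt5a, at 138 and 52.1 CPM, around control values of 95.3 and 83.5 CPM. The groups overlapped and no difference was called (log2 fold change 0.09 ± 0.47, adjusted p = 0.90). Taken alone, the libraries pointed in opposite directions: without KO replicate 1 the log2 fold change was -0.78, and without KO replicate 2 it was 0.62. Each of these fits left 1 KO library of day 5, so its spread was taken from the other groups. Wnt5b, at 7.59 and 4.89 CPM in KO and 4.96 and 3.97 CPM in control, overlapped too (0.48 ± 0.23, adjusted p = 0.121). Without KO replicate 2 its log2 fold change was 0.75. Wnt9b measured 1.54 and 1.57 CPM in KO and 1.88 and 2.29 CPM in control (-0.42 ± 0.35, adjusted p = 0.357). Wnt11 measured 12.9 and 15.4 CPM in KO and 18.4 and 14.7 CPM in control (-0.22 ± 0.18, adjusted p = 0.35). Neither Wnt9b nor Wnt11 was called. Wnt16 had 5 counts in KO and 3 in control.

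Day 5 marker levels differed as well. All 7 of the epithelial markers tested, of 10 in the list, rose in KO, with a summed level of 2930 to 3150 CPM in KO and 1500 to 1630 CPM in control, and with Trp63 at 0 in KO and Krt5 at 0 in control. Streak and pluripotency markers summed to 277 to 552 CPM in KO and 52 to 70.6 CPM in control, with 9 of 10 higher. Fibroblast and mesenchyme markers summed to 230 to 681 CPM in KO and 1650 to 1960 CPM in control, with 5 of 12 lower and 1 higher. Their part in the Wnt differences was not tested.

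Between day 3 and day 5 some ligands took different courses in the 2 lines, while Wnt11 and Wnt9a changed by similar amounts in both. In control, Wnt5a and Wnt11 rose and Wnt5b fell, beside 30.6% of all genes called higher and 30.2% called lower at day 5. Control Wnt5b went down by more than any other of these genes (log2 fold change -2.91 ± 0.21, adjusted p = 3.21e-06). Control Wnt11 was 0.86 ± 0.19 higher (adjusted p = 0.00326), and control Wnt5a was 1.71 ± 0.51 higher (adjusted p = 0.0394). The Wnt5a call was lost without any 1 of the 4 control libraries (adjusted p 0.0912 to 0.146) and with no filter on low counts (adjusted p = 0.074). Control Wnt9a, at 1.12 ± 0.46, was not called (adjusted p = 0.0577), and was 2.29 without day 3 control replicate 1.

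In KO, Wnt4, Wnt5a, Wnt9a, Wnt9b and Wnt11 were higher at day 5 than at day 3 and none of the 7 was lower, beside 28.3% and 25.5% of all genes. Wnt5a had the largest step, of 7.17 ± 0.88 on the log2 scale (adjusted p = 0.00236), starting from 0.354 and 0.93 CPM. Wnt4 rose by 1.98 ± 0.28 (adjusted p = 3.28e-04) and Wnt11 by 0.97 ± 0.19 (adjusted p = 0.00235). These 3 calls held in all 9 alternative fits. Wnt9a rose by 1.06 ± 0.35 (adjusted p = 0.0291), a call lost without day 3 KO replicate 1 (adjusted p = 0.166) or replicate 2 (adjusted p = 0.118) and with DESeq2 (adjusted p = 0.0611). Wnt9b rose by 1.25 ± 0.40 (adjusted p = 0.0254), a call lost without any 1 of the 4 KO libraries (adjusted p 0.0575 to 0.108), with DESeq2 (0.183), with no filter on low counts (0.0601) and in a fit of the compared groups alone (0.0584).

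Whether the KO difference itself changed from day 3 to day 5 was tested as an interaction. Wnt4, Wnt5a, Wnt5b and Wnt9b each had a more positive KO difference at day 5 and none had a more negative one, beside 13.4% and 10.8% of all genes. Wnt5b gave the firmest of these, with a change of 2.38 ± 0.29 (adjusted p = 4.85e-04) that held in all 12 alternative fits. Wnt4 changed by 2.11 ± 0.46 (adjusted p = 0.0103), Wnt5a by 5.46 ± 1.15 (adjusted p = 0.0307) and Wnt9b by 1.68 ± 0.52 (adjusted p = 0.0424). Leaving out single libraries ended each of those 3 calls, those of Wnt5a and Wnt9b were also lost with no filter on low counts (adjusted p = 0.058 and 0.0916), and that of Wnt9b with DESeq2 (adjusted p = 0.3). For Wnt4 this happened without day 3 control replicate 2 (adjusted p = 0.0724), day 3 KO replicate 1 (0.0502) or day 5 control replicate 1 (0.0575). For Wnt5a it happened without any 1 of the day 3 or control day 5 libraries (adjusted p 0.0749 to 0.101). For Wnt9b it happened without any 1 library except day 5 KO replicate 1 (adjusted p 0.0616 to 0.132). Wnt7b (1.80 ± 0.86, adjusted p = 0.161), Wnt9a (-0.06 ± 0.54, adjusted p = 0.949) and Wnt11 (0.11 ± 0.27, adjusted p = 0.801) were not called.

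At day 10 the libraries labelled KO had more Wnt5b and Wnt11 and less Wnt7b than control. These are 2 rises and 1 fall among 9 genes tested, beside 1.92% and 3.35% of the 17022 genes tested. The median of the 9 was 0.14 on the log2 scale, and 0.02 for all genes.

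Wnt5b measured 21.5 and 33 CPM in libraries labelled KO and 7.81 and 7.39 CPM in control (log2 fold change 1.84 ± 0.28, adjusted p = 0.0204). Wnt11 measured 23.3 and 24.8 CPM in libraries labelled KO and 9.91 and 8.32 CPM in control (1.40 ± 0.24, adjusted p = 0.0285). Wnt7b measured 0.8 and 0.492 CPM in libraries labelled KO and 3.66 and 3.89 CPM in control (-2.54 ± 0.36, adjusted p = 0.017). These 3 calls depended on single libraries. Wnt5b was lost without control replicate 1 (adjusted p = 0.152), control replicate 2 (0.143) or KO replicate 2 (0.0623), with log2 fold changes of 1.89, 1.80 and 1.5. Wnt7b was lost without the same libraries (adjusted p = 0.113, 0.0972 and 0.0732), with -2.58, -2.49 and -2.23. Wnt11 was lost without any 1 of the 4 libraries (adjusted p 0.0544 to 0.227), with 1.28 to 1.53.

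The day 10 values of Wnt9a were 18.1 and 18.7 CPM in libraries labelled KO and 6.79 and 6.36 CPM in control. The difference was not called, with an adjusted p of 0.0883 (log2 fold change 1.49 ± 0.39). The adjusted p was 0.0053 with DESeq2, 0.00657 with no filter on low counts and 0.0166 in a fit of the 2 groups alone. Wnt4 measured 13.9 and 14.4 CPM in libraries labelled KO and 10.4 in each control library (0.44 ± 0.35, adjusted p = 0.599). Wnt5a measured 24.8 and 18.9 CPM in libraries labelled KO and 28.9 and 35 CPM in control (-0.55 ± 0.30, adjusted p = 0.39). Neither of those was called. Wnt9b measured 0.679 and 0.191 CPM in libraries labelled KO and 0.536 and 0.715 CPM in control (-0.50 ± 0.60, adjusted p = 0.748). Wnt7a measured 0.364 and 0.0273 CPM in libraries labelled KO and 0.303 and 0.053 CPM in control (0.14 ± 1.19, adjusted p = 0.974). Wnt16 measured 0.17 and 0.0273 CPM in libraries labelled KO and 0.21 and 0.265 CPM in control (-1.20 ± 0.83, adjusted p = 0.52). None of these 3 low genes was called, and single libraries of Wnt7a and Wnt16 fell below the level of 3 counts.

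Cardiomyocyte markers summed to 167 to 373 CPM in day 10 libraries labelled KO and 4580 to 5480 CPM in control, with 9 of 10 lower. Fibroblast and mesenchyme markers summed to 20900 to 27000 CPM in libraries labelled KO and 7970 to 8690 CPM in control, with 3 of 12 higher. The list's median log2 fold change was 1.2. The largest terms were the collagens Col1a1, Col1a2 and Col3a1, at 8250, 7130 and 5240 CPM on average in libraries labelled KO and 2600, 2110 and 2270 CPM in control. Pdgfra and Pdgfrb averaged 104 and 84.6 CPM in libraries labelled KO and 93.6 and 91.3 CPM in control. Epithelial markers summed to 521 to 543 CPM in libraries labelled KO and 1010 to 1050 CPM in control, with 4 of 10 lower. No gene of the cardiomyocyte, fibroblast or epithelial lists was at 0 in any day 10 group. Visceral and gut endoderm markers summed to 705 to 1800 CPM in libraries labelled KO and 4440 to 4940 CPM in control. Of 10, 4 were lower. Kidney and mesothelium markers summed to 638 to 681 CPM in libraries labelled KO and 249 to 266 CPM in control. Of 8, 2 were higher, and Pax2 was at 0 in libraries labelled KO. Blood markers summed to 2450 to 2610 CPM and 1340 to 2030 CPM, with 1 of 10 higher. The part of these lists in the differences of Wnt5b, Wnt11 and Wnt7b was not tested.

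With IWR1, Wnt9b and Wnt7b rose and Wnt11 fell relative to libraries labelled KO without it. Among 9 genes tested these are 2 rises and 1 fall, beside 5.77% and 8.08% of all genes. The comparison uses the same KO libraries as the one with control, so a value that is high or low in them moves both, and the values of all 3 groups are given together.

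Wnt9b measured 3.54 and 5.13 CPM with IWR1, 0.679 and 0.191 CPM in libraries labelled KO and 0.536 and 0.715 CPM in control. Both treated libraries stood above all 4 others. The log2 fold change was 3.29 ± 0.59 against KO (adjusted p = 0.0207) and 2.79 ± 0.57 against control (adjusted p = 0.0353). The call against KO was lost without IWR1 replicate 1 (adjusted p = 0.056, log2 fold change 3.53), and the call against control without any 1 of the 4 libraries (adjusted p 0.0618 to 0.199). It was the only member called against control, where 1 rose and 0 of 9 fell, beside 2.99% and 6.13% of all genes.

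Wnt7b measured 1.7 and 1.9 CPM with IWR1, 0.8 and 0.492 CPM in libraries labelled KO and 3.66 and 3.89 CPM in control. The treated libraries lay between the other groups. The difference from KO was 1.47 ± 0.36 (adjusted p = 0.044) and was lost without any 1 of the 4 libraries (adjusted p 0.0655 to 0.128) and in a fit of the 2 groups alone (adjusted p = 0.114). The difference from control was -1.07 ± 0.34 and was not called (adjusted p = 0.0929). Wnt11 measured 9.25 and 12.5 CPM with IWR1, 23.3 and 24.8 CPM in libraries labelled KO and 9.91 and 8.32 CPM in control. Treated libraries overlapped control and lay below KO (-1.15 ± 0.24 against KO, adjusted p = 0.0299; 0.25 ± 0.24 against control, adjusted p = 0.48). The call against KO was lost without KO replicate 1 (adjusted p = 0.0774), KO replicate 2 (0.0801) or IWR1 replicate 1 (0.106), and in a fit of the 2 groups alone (adjusted p = 0.073).

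Wnt9a had the same order of groups as Wnt11, at 4.29 and 9.89 CPM with IWR1, 18.1 and 18.7 CPM in libraries labelled KO and 6.79 and 6.36 CPM in control. The difference from KO was -1.38 ± 0.39 and was not called (adjusted p = 0.063). It was called with DESeq2 (adjusted p = 0.00625) and with no filter on low counts (0.0074), and was -2.10 without IWR1 replicate 2. Wnt5b, at 17.9 and 14.4 CPM with IWR1, 21.5 and 33 CPM in libraries labelled KO and 7.81 and 7.39 CPM in control, lay between the other groups. It was called neither against KO (-0.76 ± 0.27, adjusted p = 0.104) nor against control (1.08 ± 0.27, adjusted p = 0.058). The difference from control was called with DESeq2 (adjusted p = 0.00635), with no filter on low counts (0.0117) and in a fit of the 2 groups alone (0.0399).

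The IWR1 libraries differed from each other in Wnt4, at 10.2 and 21.6 CPM, and in Wnt5a, at 25.1 and 41.5 CPM, and neither gene was called against KO (adjusted p = 0.768 for Wnt4 and 0.202 for Wnt5a) or against control (adjusted p = 0.276 for Wnt4 and 0.903 for Wnt5a). Wnt16 measured 0.642 and 0.413 CPM with IWR1, 0.17 and 0.0273 CPM in libraries labelled KO and 0.21 and 0.265 CPM in control. Both treated values were the highest of the 6, with no call against KO (2.36 ± 0.79, adjusted p = 0.09) or against control (1.15 ± 0.71, adjusted p = 0.296). Wnt7a, at 0.248 and 0.606 CPM with IWR1, overlapped both other groups (adjusted p = 0.533 against KO and 0.478 against control).

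All 8 neuron markers and 9 of 10 neural progenitor markers rose with IWR1 relative to libraries labelled KO. The neuron list summed to 353 to 449 CPM with IWR1, 42.8 to 46.5 CPM in libraries labelled KO and 49.1 to 53.3 CPM in control. The neural progenitor list, which holds Wnt1, summed to 249 to 314 CPM with IWR1, 47.5 to 75.7 CPM in libraries labelled KO and 105 to 118 CPM in control. Fibroblast and mesenchyme markers summed to 1520 to 3820 CPM with IWR1, 20900 to 27000 CPM in libraries labelled KO and 7970 to 8690 CPM in control, and 7 of 12 fell and 2 rose relative to KO. Visceral and gut endoderm markers summed to 108 to 231 CPM with IWR1 and 705 to 1800 CPM in libraries labelled KO. In control they summed to 4440 to 4940 CPM, and 5 of 10 fell and 1 rose relative to KO. The part of these changes in the ligand values was not tested.

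**Figure D2:**
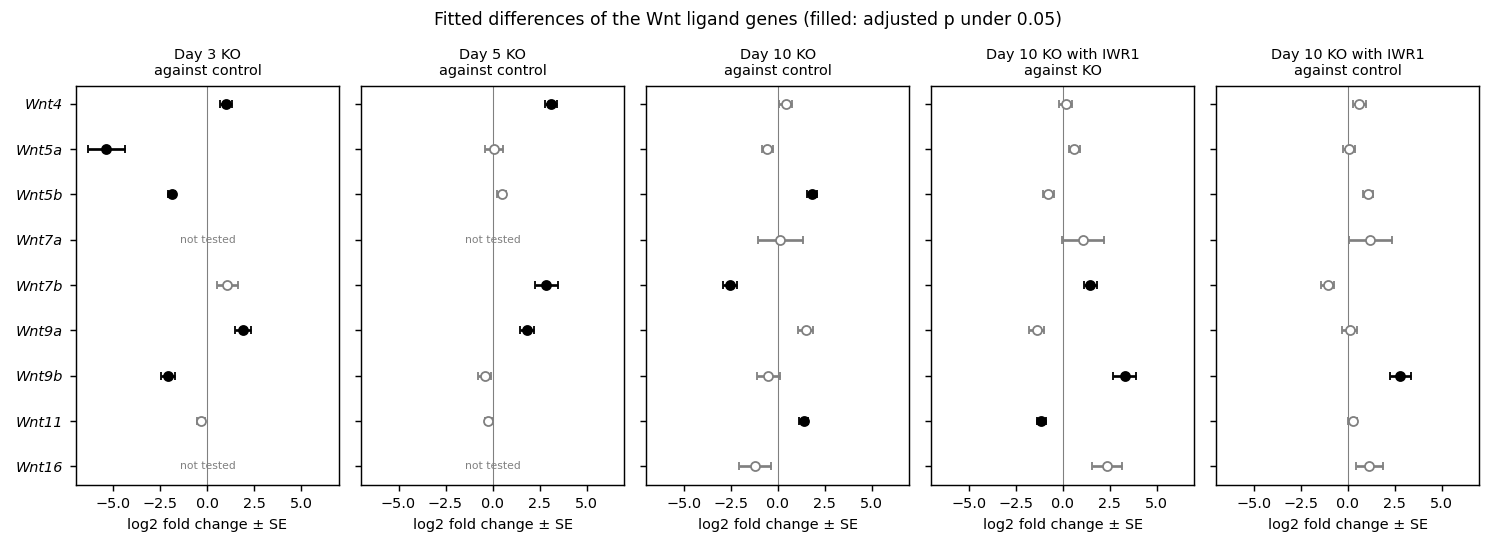
Log2 fold change (horizontal axis) of each Wnt ligand gene (rows) in the 5 comparisons between groups of 1 day; points are fitted values, bars are ± SE, and filled points have an adjusted p under 0.05. In KO against control, Wnt4 and Wnt9a are higher and Wnt5a, Wnt5b and Wnt9b lower at day 3, Wnt4, Wnt7b and Wnt9a are higher at day 5, and Wnt5b and Wnt11 are higher and Wnt7b lower at day 10.

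Levels of different genes can be set against each other only per length, so each gene's CPM was divided by the length of its longest coding transcript in kb. On this scale Wnt5b or Wnt5a held the largest share in every library. The shares depend on the length chosen, which was 2371 bases for Wnt5b and 7010 for Wnt5a. These genes have 4 and 2 coding transcripts, and the counts do not show which were used. Before division by length, Wnt5b and Wnt5a averaged 33.5 and 27.3 CPM in day 3 control. In day 3 KO libraries Wnt5b made up 40.7% and 38% of the summed level of the 9 genes, and in control libraries 61.9% and 62.8%. Wnt5a made up 0.539% and 1.35% of it in day 3 KO and 18.4% and 16% in control. The remainder in KO was mainly Wnt11 (21.1% and 22.4%), Wnt9a (15.9% and 17.1%) and Wnt4 (13.7% and 14.1%). At day 5 Wnt5a was the main ligand transcript in both lines, with 52.5% and 32.5% in KO and 58.6% and 59.7% in control. Wnt4 made up 17.3% and 17.8% in day 5 KO and 2.24% and 3.56% in control.

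At day 10 the largest share of a gene in any library was 42.1%, of Wnt5b in a library labelled KO. Wnt5b made up 39.5% and 23.5% with IWR1, 31.6% and 42.1% in libraries labelled KO and 20.4% and 19.1% in control. Wnt5a made up 18.8% and 23% with IWR1, 12.4% and 8.13% in libraries labelled KO and 25.5% and 30.6% in control. Wnt9b reached 4.1% and 4.41% with IWR1 and at most 0.97% in the other day 10 libraries. The summed level itself was 9.36 and 9.85 CPM per kb in day 3 KO and 22.6 and 22.8 in control. At day 5 it was 37.6 and 22.9 CPM per kb in KO and 23.2 and 20 in control. At day 10 it was 19.1 and 25.7 CPM per kb with IWR1, 28.7 and 33.1 in libraries labelled KO and 16.2 and 16.3 in control. Shares within a sum are tied to each other: a fall of Wnt5b raises the shares of the rest.

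**Figure D3:**
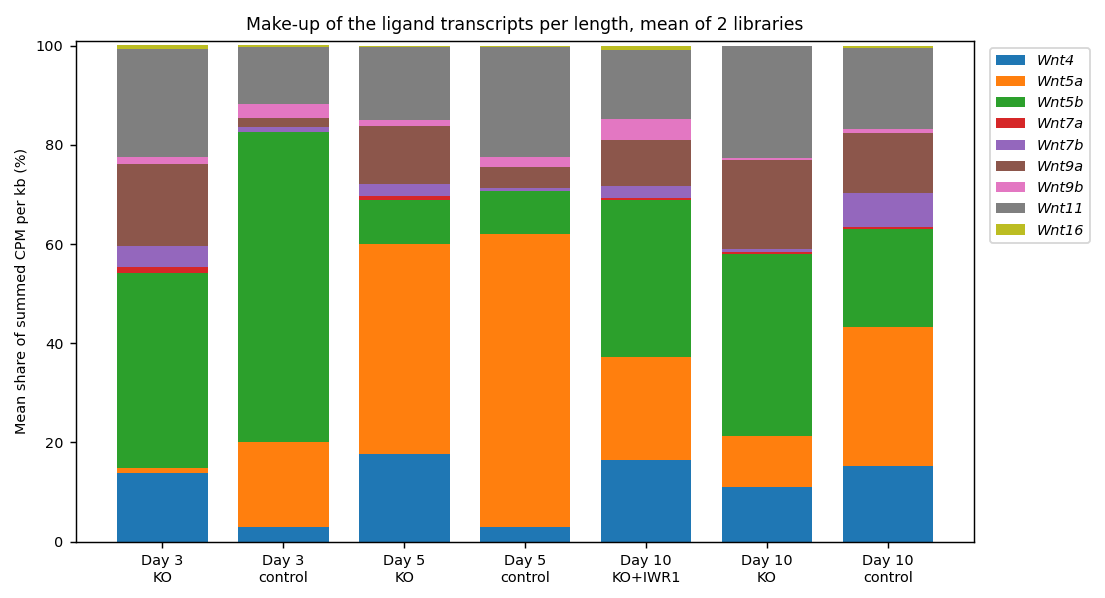
Mean share (vertical axis, percent) of each Wnt ligand gene in the summed CPM per kb of the 9 genes, for each group (horizontal axis) of 2 libraries. Wnt5b takes the largest share at day 3, at 39.4% in KO, and Wnt5a takes the largest share in both lines at day 5.

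Across the 7 groups, each gene had its own order of mean levels. Wnt4 was highest in day 5 KO (22.2 ± 7.19 CPM, SD over 2 libraries) and lowest in day 5 control (2.58 ± 0.566 CPM), where it overlapped day 3 control. Wnt5a was highest in day 5 KO (95.1 ± 60.9 CPM) and day 5 control (89.4 ± 8.4 CPM), which overlapped, and lowest in day 3 KO (0.642 ± 0.407 CPM). Wnt5b was highest in day 3 control (33.5 ± 0.624 CPM) and lowest in day 5 control (4.46 ± 0.694 CPM), which overlapped day 5 KO. The top levels of Wnt9a (18.4 ± 0.407 CPM) and Wnt11 (24 ± 1.03 CPM) were both in day 10 libraries labelled KO, and neither overlapped the next group down. Wnt7b was highest in day 10 control (3.78 ± 0.163 CPM) and lowest in day 5 control (0.298 CPM). Wnt9b was highest in day 10 with IWR1 (4.33 ± 1.12 CPM), followed by day 3 control (2.82 CPM), and its lowest groups, day 3 KO, day 10 control and day 10 KO, overlapped each other in sequence. For Wnt16 only day 10 with IWR1 (0.528 ± 0.161 CPM) stood clear of its neighbour in the order. These orders cross the separately scaled tables and are descriptions.

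Among 12304 other coding genes, those with the pattern most like each ligand were found by Pearson's r of log2(CPM + 0.5) in both tables, ranked by the lower of the values. Libraries of a group share their line and day, so these r values are a description without a test. Nor do they compare sizes: Tmem164, the gene most like Wnt5a, averaged 63.5 CPM in day 3 KO and 82.1 CPM in control. Wnt5a averaged 0.642 and 27.3 CPM there. The closest likeness was between Wnt11 and Clptm1l, with r of 0.984 over 8 libraries at days 3 and 5 and 0.987 over 6 at day 10. Naalad2 followed it, with 0.968 and 0.977. Wnt9b was most like Snai1, a repressor of E-cadherin in epithelial to mesenchymal transition, with 0.946 and 0.953. Snai1 ranged from 3.63 to 6.93 CPM in day 3 KO and from 80 to 85.4 CPM in control, and from 21.4 to 26.7 CPM with IWR1 against 13.8 to 14.7 CPM in day 10 libraries labelled KO. Wnt5a was most like Tmem164 (0.949 and 0.945), Wnt9a like C1qtnf12 (0.929 and 0.926), Wnt7b like Marveld2 (0.919 and 0.919), Wnt5b like Cyb5a (0.917 and 0.914) and Wnt4 like Ssbp4 (0.933 and 0.859). The genes ranked after these were Ift140 for Wnt5a, Rnf115 for Wnt5b, Synm for Wnt7b, Lamp1 for Wnt9a, Zfp12 for Wnt9b and Ube2ql1 for Wnt4.

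Of the ligands, 2 have a second Wnt gene as neighbour on chromosome 11. Wnt9a lies 16.2 kb from Wnt3a (59248033 to 59290752) and Wnt9b lies 24.3 kb from Wnt3 (103774150 to 103817957), in each case transcribed away from each other. Wnt3 and Wnt3a are canonical ligands of the primitive streak. Wnt3a measured 0.354 and 0.338 CPM in day 3 KO and 10.7 and 8.54 CPM in control (log2 fold change -4.76 ± 0.50, adjusted p = 1.30e-04), while Wnt9a was higher in KO. Wnt3 measured 24 and 26.1 CPM in day 3 KO and 95.1 and 91.9 CPM in control (-1.90 ± 0.12, adjusted p = 3.65e-06), and its neighbour Wnt9b was lower as well. At day 5 Wnt3 was higher in KO, at 39.5 and 30.4 CPM in KO and 12.8 and 13.3 CPM in control (1.42 ± 0.13, adjusted p = 4.30e-05), and Wnt9b was not called.

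At day 10 Wnt3a measured 5.11 and 16.4 CPM with IWR1, 0.17 and 0.273 CPM in libraries labelled KO and 0.0233 and 0.318 CPM in control (5.59 ± 0.95 against KO, adjusted p = 0.0186). Wnt3 measured 4.86 and 8.08 CPM with IWR1, 0.922 and 0.683 CPM in libraries labelled KO and 0.443 and 0.741 CPM in control (3.00 ± 0.43 against KO, adjusted p = 0.0139). So Wnt9b and Wnt3 were both higher with IWR1, while the difference in Wnt9a was negative and not called. Whether neighbours share control was not tested.

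**Figure D4:**
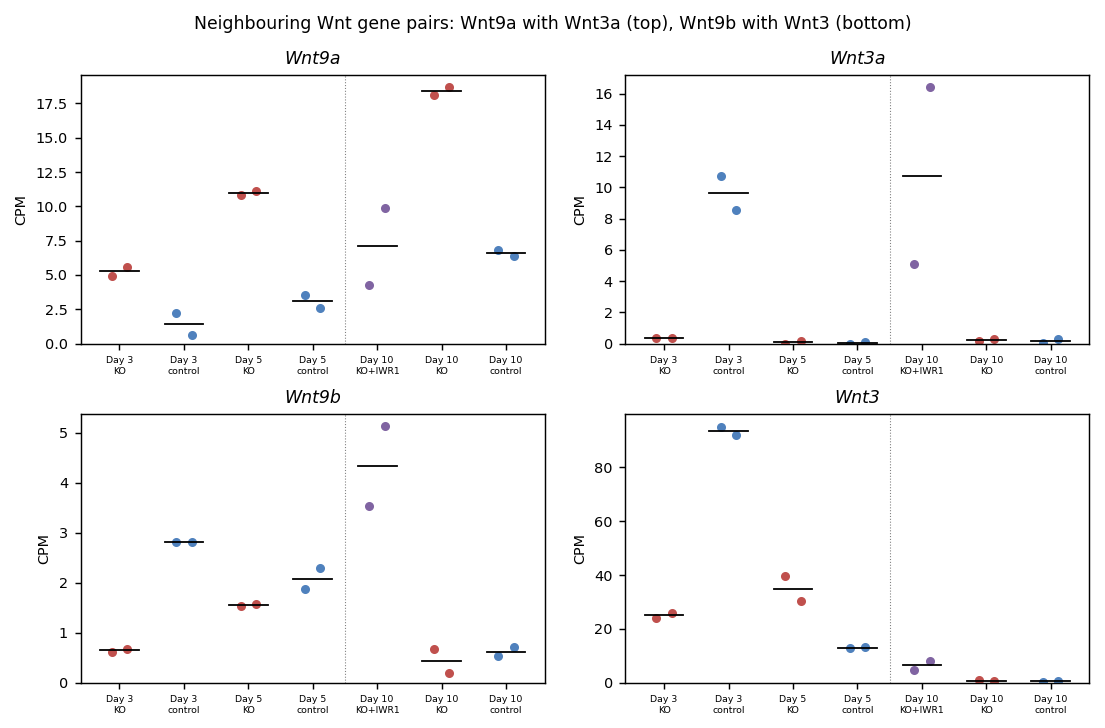
CPM by library (points) with group means (bars) for the neighbours Wnt9a and Wnt3a (top) and Wnt9b and Wnt3 (bottom); colours are as in the plot of CPM by library. Wnt9b and Wnt3 are both lower in KO at day 3 and both higher with IWR1 at day 10, while Wnt3a is 5.11 and 16.4 CPM with IWR1 where Wnt9a is 4.29 and 9.89 CPM.

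The 10 other Wnt ligand genes, mostly of canonical type, were counted for comparison. At day 3, 2 of the 7 tested rose and 4 fell, beside 16% and 16.9% of all genes. Their median log2 fold change was -1.90, beside -0.34 for the 7 tested genes described here and -0.01 for all genes. Wnt2b, expressed in mesoderm of several organs, measured 0.973 and 0.93 CPM in KO and 10 and 10.4 CPM in control (-3.41 ± 0.30, adjusted p = 3.68e-05). At day 5, 4 of 7 rose and 1 fell, beside 21.9% and 21.7% of all genes. Wnt10b measured 5.6 and 9.95 CPM in KO and 0.0991 and 0.0994 CPM in control, each control value being 1 count. Wnt2, which marks early lung and heart mesoderm, fell in KO to 4.51 and 5.06 CPM against 22.5 and 17.6 CPM in control (-2.06 ± 0.26, adjusted p = 2.57e-04). At day 10, 0 of 9 rose and 1, Wnt8b, fell in libraries labelled KO, beside 1.92% and 3.35% of all genes. With IWR1, 5 of 9 rose and 1 fell relative to KO, beside 5.77% and 8.08% of all genes. Wnt1, a ligand of the midbrain and dorsal neural tube, measured 19.1 and 39.1 CPM with IWR1, 0.218 and 0.383 CPM in libraries labelled KO and 1.21 and 0.847 CPM in control (6.6 ± 0.54 against KO, adjusted p = 0.00573).

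Counts in the Wnt pathway lists stand beside the shares of all genes called in KO against control, which were 16% higher and 16.9% lower at day 3, 21.9% and 21.7% at day 5 and 1.92% and 3.35% at day 10. For IWR1 against KO they were 5.77% higher and 8.08% lower. Of the receptors and co-receptors used in the noncanonical branches, at day 3, 1 of 11 tested rose and 0 fell: Mcam, a cell surface receptor reported to bind Wnt5a, measured 43.8 and 39 CPM in KO and 5.37 and 4.58 CPM in control (3.05 ± 0.34, adjusted p = 0.0013). At day 5, 5 of 11 fell and 2 rose. Ror1, a receptor for Wnt5a, measured 8.67 and 13.9 CPM in KO and 43.2 and 38.4 CPM in control (-1.85 ± 0.18, adjusted p = 6.91e-05), and Fzd2 measured 48.4 and 60.9 CPM in KO and 118 and 97.7 CPM in control (-0.98 ± 0.12, adjusted p = 3.40e-04). Fzd6, a polarity receptor, measured 7.13 and 9.16 CPM in day 5 KO and 2.48 and 1.69 CPM in control (1.96 ± 0.26, adjusted p = 3.60e-04). At day 10, 0 of 11 were called between libraries labelled KO and control. With IWR1, Fzd3 rose, at 75.3 and 81.2 CPM with IWR1 and 31.7 and 26.1 CPM in libraries labelled KO (1.44 ± 0.23, adjusted p = 0.0172), and Fzd6 fell, at 5.26 and 5.62 CPM with IWR1 and 12.8 and 13.3 CPM in libraries labelled KO (-1.26 ± 0.23, adjusted p = 0.0203).

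In the planar cell polarity and JNK list of 23 genes, 4 rose and 3 fell at day 3, 3 rose and 7 fell at day 5, and 0 rose and 1 fell at day 10 in KO. At day 5, 21.9% of all genes rose and 21.7% fell, and the list's median log2 fold change was -0.12 beside 0.01 for all genes. Celsr2, a polarity cadherin, measured 37.4 and 42.3 CPM in day 3 KO and 14.2 and 18.2 CPM in control (1.30 ± 0.16, adjusted p = 3.01e-04). At day 10 it measured 14.8 and 35.4 CPM with IWR1, 4.46 and 2.38 CPM in libraries labelled KO and 15.8 and 21.7 CPM in control, so that it was the 1 gene of the list that fell against control (-2.45 ± 0.51, adjusted p = 0.0461). With IWR1, 4 rose and 3 fell relative to KO, among them Mapk10, a JNK kinase known from neurons, at 6.19 and 8.21 CPM with IWR1 and 0.388 and 0.301 CPM in libraries labelled KO (4.37 ± 0.36, adjusted p = 0.00573).

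In the calcium list of 19 genes, 3 rose and 5 fell at day 3, 4 rose and 4 fell at day 5, and 0 rose and 2 fell at day 10 in KO. Its day 5 counts are near the 21.9% and 21.7% of all genes, with a median log2 fold change of -0.05 beside 0.01 for all genes. Nfatc2, a calcium-responsive transcription factor, measured 7.69 and 5.75 CPM in day 3 KO and 1.14 and 1.06 CPM in control (2.60 ± 0.29, adjusted p = 1.96e-04). Camk2a, a calcium-dependent kinase, measured 6.71 and 7.06 CPM with IWR1, 15.1 and 17.8 CPM in day 10 libraries labelled KO and 38.5 and 34.3 CPM in control. It was called lower in each of the 3 day 10 comparisons, at -1.14 ± 0.20 in KO against control (adjusted p = 0.0298), -1.26 ± 0.21 with IWR1 against KO (adjusted p = 0.0172) and -2.40 ± 0.21 with IWR1 against control (adjusted p = 0.00457). With IWR1, 0 rose and 3 fell relative to KO.

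Of 12 genes that modify, carry or release Wnt proteins, 0 rose and 4 fell at day 3, beside 16% and 16.9% of all genes. At day 5, 3 rose and 4 fell, beside 21.9% and 21.7% of all genes. Wls, the carrier that takes Wnt proteins to the cell surface, measured 57.5 and 59.3 CPM in day 3 KO and 103 and 109 CPM in control (-0.86 ± 0.07, adjusted p = 3.39e-05), and 228 and 200 CPM in day 5 KO against 348 and 325 CPM in control (-0.65 ± 0.07, adjusted p = 8.84e-05). At day 10 none of the 12 was called between libraries labelled KO and control, with a median log2 fold change of 0.47 beside 0.02 for all genes and with Wls at 328 and 467 CPM in libraries labelled KO and 205 and 179 CPM in control (1.05 ± 0.25, adjusted p = 0.0709). With IWR1, 0 rose and 2 fell relative to KO, Gpc4 and Gpc3, glypicans of the cell surface that bind Wnt proteins. Gpc3 measured 414 and 415 CPM with IWR1 and 844 and 887 CPM in libraries labelled KO (-1.06 ± 0.21, adjusted p = 0.0259).

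Targets and feedback genes of canonical signalling turned in direction between day 3 and day 5. Of the 15 tested, 0 rose and 8 fell at day 3 and 8 rose and 2 fell at day 5. The KO difference was more positive at day 5 than at day 3 for 9 of 15 and more negative for 0, beside 13.4% and 10.8% of all genes. At day 10, 0 of 14 rose and 3 fell in libraries labelled KO. With IWR1, 5 of 14 rose and 0 fell relative to KO. Axin2, a feedback gene that reads out the canonical branch, measured 21.6 and 42.7 CPM with IWR1, 15.1 and 11.3 CPM in libraries labelled KO and 15.5 and 17.3 CPM in control. The treated values were above those of both other groups, with no call against KO (adjusted p = 0.0583) or against control (adjusted p = 0.122). Relative to control, the IWR1 libraries had 5 of 9 other ligands higher and 1 lower. They had 3 of 14 canonical targets higher and 1 lower, and 4 of 19 calcium genes lower. Of all genes, 2.99% were called higher and 6.13% lower in that comparison. Of the receptors only Fzd4 was called lower (28.1 CPM on average with IWR1 and 64.3 CPM in control, log2 fold change -1.20 ± 0.25, adjusted p = 0.0387), of the polarity and JNK genes only Mapk10 was called, higher (3.45 ± 0.34, adjusted p = 0.00523), and of the processing genes none.

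**Figure D5:**
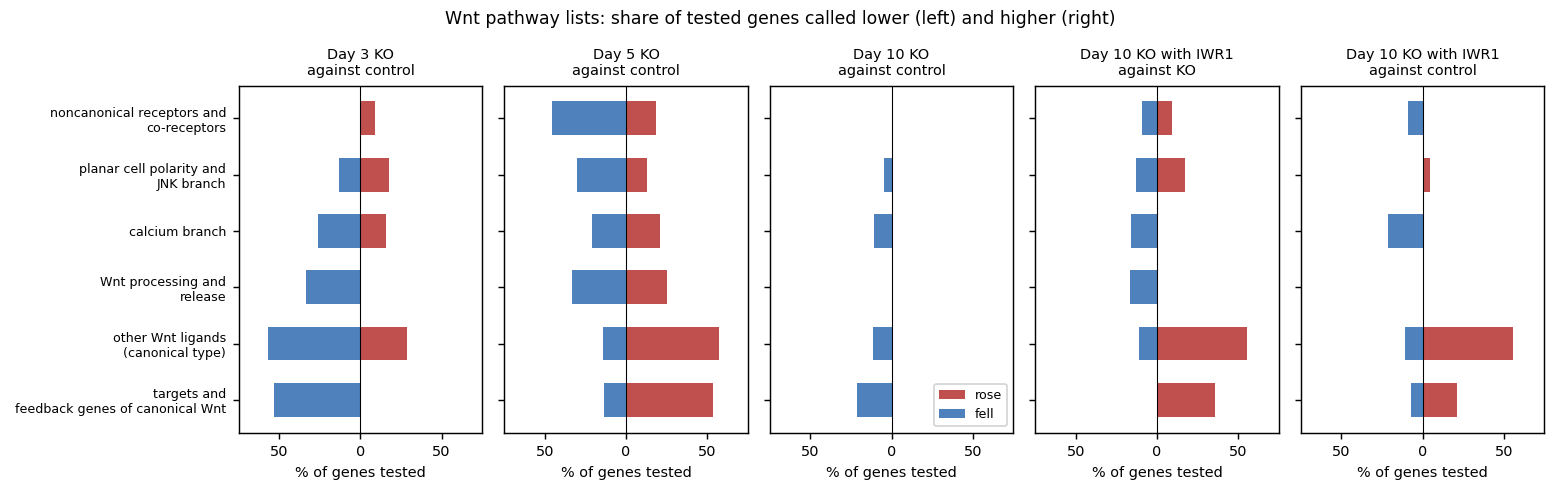
Share of tested genes in each of 6 Wnt pathway lists (rows) called lower (blue, to the left) and higher (red, to the right) in the 5 comparisons; axes are percent of genes tested. Targets of the canonical branch point left at day 3 (8 of 15 lower) and right at day 5 (8 of 15 higher), while of 11 receptors of the noncanonical branches 5 are lower and 2 higher at day 5.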

How the data were processed

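Paired-end RNA sequencing of 14 libraries was deposited as 2 tables, of days 3 and 5 and of day 10. The values are expected counts per gene, estimated by the authors with kallisto 0.46.2 on mm10, per the submitters' processing notes, and deposited as whole numbers; the sources used here do not state how transcripts were summed, the annotation or any use of strand. CPM were computed here on TMM-scaled totals. Symbols and lengths came from GENCODE vM21, where all 36047 identifiers matched.

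Each table was fitted separately with edgeR 4.0.16 in R 4.3.3 (filterByExpr, TMM, robust quasi-likelihood test, two-sided, Benjamini-Hochberg adjustment over all genes, threshold 0.05). The fits held 14430 genes with 4 residual degrees of freedom and 17022 genes with 3. Alternatives were DESeq2 1.42.0, RLE scaling, no filter, the compared groups alone, a replicate block and each library left out; the fit was tested on simulated data. Libraries of a group differed by more than counting noise (chi-square per degree of freedom 1.85 to 148).

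The 9 genes, the 6 pathway lists and the 10 marker lists were chosen with earlier results of these data known. List genes were named when among the 3 smallest p of a list in a comparison; Wnt3 and Wnt3a were also named as neighbours.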

Additional observations from a re-analysis of the deposited data

Results flagged for a closer look

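The KO difference of 4 Wnt ligand genes was itself different at day 5 and at day 3, by an interaction term in edgeR's quasi-likelihood test. The change, as the day 5 log2 fold change of KO over control minus that of day 3, was 2.11 for Wnt4, 5.46 for Wnt5a, 2.38 for Wnt5b and 1.68 for Wnt9b. For Wnt4 the KO difference was positive on both days and larger at day 5. For Wnt5a, Wnt5b and Wnt9b it was negative and called at day 3 and not called at day 5. The day 5 KO libraries disagreed on Wnt5a, at 138 and 52.1 CPM. Groups of 2 libraries are too small to look for a library that stands apart.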

How the results depend on the processing

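Scaling by RLE in place of TMM changed no call and no direction of the 9 genes in any of the 8 contrasts. The day 5 calls of Wnt4, Wnt7b and Wnt9a, the day 3 calls of Wnt5b and Wnt9b, and the change of Wnt5b between days 3 and 5 held in every alternative fit.

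With DESeq2 the genes called were 2991 for day 3 KO against control (4741 in edgeR), 2027 for day 10 KO against control (897), 4308 for IWR1 against KO (2358), 3456 for IWR1 against control (1553) and 2317 for the day 5 minus day 3 difference (3496). With no filter on low counts they were 1737, 3697 and 3093 in the day 10 comparisons. In fits of the compared groups alone they were 7334 at day 3 and 1001 for IWR1 against KO. Of the Wnt ligand genes, DESeq2 called 1 higher at day 3, 2 lower for IWR1 against KO, 2 higher for IWR1 against control and 3 higher at day 5 against day 3 in KO. No filter gave 2 lower for IWR1 against KO, 2 higher for IWR1 against control, 1 lower at day 5 against day 3 in KO and 2 higher for the day 5 minus day 3 difference. The compared groups alone gave 1 higher and 0 lower for IWR1 against KO and 2 higher for IWR1 against control.

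Correlations of the deviations of same-numbered libraries were -0.014 to 0.066 at days 3 and 5. At day 10 they were -0.495 for KO with control, -0.492 for IWR1 with KO and 0.392 for IWR1 with control. They differed in sign, so the numbers were not taken to pair the samples. With the replicate number as a block, 1233 and 948 genes were called in the IWR1 comparisons with KO and with control. Ligand genes called were 1 higher at day 3, 1 higher at day 10 in KO, 1 higher and 0 lower for IWR1 against KO and 0 higher for IWR1 against control. The calls lost with this block were Wnt4 at day 3 and Wnt11 at day 10 in KO against control. Also lost were Wnt7b and Wnt11 for IWR1 against KO, and Wnt9b for IWR1 against control. Wnt5a at day 5 was then -0.01, and the Wnt9b change between days 3 and 5 was not called (adjusted p = 0.0607).

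Leaving out 1 library gave 2520 to 2572 genes called at day 3, 4030 to 7565 at day 5, 63 to 838 for day 10 KO against control, 548 to 3056 for IWR1 against KO, 280 to 2145 for IWR1 against control and 2049 to 5621 for the day 5 minus day 3 difference. Ligand genes called were then 0 to 1 higher at day 3; 3 to 5 higher and 0 to 1 lower at day 5; 0 to 1 higher and 0 to 1 lower for day 10 KO against control; 0 to 1 higher and 0 to 2 lower for IWR1 against KO; 0 to 0 higher for IWR1 against control. For day 5 against day 3 they were 1 to 2 higher in control, 3 to 4 higher and 0 to 1 lower in KO, and 1 to 4 higher for the difference between the days.

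Directions that turned when a library was left out were those of values not called with all libraries. Wnt5a at day 5 ranged from -0.78 (without KO replicate 1) to 0.62 (without KO replicate 2) and was 0 without control replicate 2. Each end of that range rests on 1 KO library of day 5, with the spread taken from the other groups. Between libraries labelled KO and control at day 10, Wnt7a ranged from -2.63 (without KO replicate 1) to 1.85 and was -0.60 without control replicate 2, and Wnt9b ranged from -1.73 to 0.12 (without KO replicate 2). With IWR1, Wnt4 ranged from -0.47 to 0.61 against KO and from -0.03 to 1.05 against control, Wnt5a from -0.34 to 0.38 against control and Wnt9a from -0.61 to 0.59 against control. The low end of each was without IWR1 replicate 2 and the high end without IWR1 replicate 1. Wnt5a was -0.07 against control without control replicate 1. Wnt4 at day 5 against day 3 in control ranged from -0.45 to 0.29 (without day 3 replicate 2), and was 0.08 without day 5 replicate 1. For the day 5 minus day 3 difference, Wnt11 was -0.07 without day 3 control replicate 2, -0.04 without day 5 control replicate 2 and -0.05 without day 5 KO replicate 2, and Wnt9a ranged from -1.24 to 0.58 (without day 3 control replicate 2), and was 0.03 without day 3 KO replicate 2 and 0.19 without day 5 control replicate 1. The cause of these changes was not tested.

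A library left alone in its group was assumed to vary like the other groups. Depth limits Wnt7a and Wnt16, with 28 and 18 counts in all over the 8 libraries of days 3 and 5. The floor of 3 counts covers counting error only.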
